A study of Rattus norvegicus with 4 samples.

Results

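The genes described here encode collagens and other proteins of the extracellular matrix in rat choroid plexus. They are the genes that the first list of the study's supplement names COL followed by a digit, or DCN, LUM, MGP, SPARC or FN1. This gave 6 genes of the 1998 gene IDs that the list at hand names, out of 32883 gene IDs measured: COL8A1 (ENSRNOG00000039668), COL8A2 (ENSRNOG00000010841), COL9A3 (ENSRNOG00000009531), DCN (ENSRNOG00000004554), SPARC (ENSRNOG00000012840) and MGP (ENSRNOG00000005695). LUM, FN1 and all other collagens are outside the named IDs and were not analysed here. The list at hand runs from the highest gene of the male choroid plexus down to 57.8 TPM, an abundance per transcript length whose sum is equal in every library. The genes described are therefore abundant in male tissue by the way they were chosen.

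Beneath the epithelium of the choroid plexus lies a core of matrix, which holds fibroblasts, immune cells and fenestrated capillaries. Collagens are trimers of chains that form the scaffold of such a stroma, and most are secreted by fibroblasts, mural cells and endothelial cells. Type VIII collagen is a short-chain collagen that builds networks, and COL8A1 and COL8A2 encode its chains. COL9A3 encodes a chain of type IX collagen, which lies on the surface of collagen fibrils and is best known from cartilage. Decorin (DCN) is a small leucine-rich proteoglycan that binds collagen fibrils, SPARC is a matricellular glycoprotein that binds collagen and calcium, and matrix Gla protein (MGP) is a vitamin K-dependent inhibitor of calcification.

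Choroid plexus was taken from Sprague Dawley rats of 9 weeks, from 5 males for the male library and 5 females for the female library. Epithelial cells were sorted from the choroid plexus of another 10 male rats by fluorescence-activated cell sorting (FACS) with an antibody against NKCC1, a cotransporter at the luminal side of the epithelium, and proximal tubules were picked from digested kidneys of 5 male rats. By the study's methods these kidneys came from the males of the choroid plexus pool, so the tubule and male libraries share animals. Each condition is 1 pooled library, so no difference has a replicate check, no p-value is given, and intervals cover counting error only. The labels name no treatment and no genetic change in any group. The collagenase digestion and the sort were applied to the FACS library and to neither whole-tissue library, so their effects cannot be told apart.

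The expected counts, which RSEM estimates from the reads of each gene, summed to 23873318 in the FACS library, 28324976 in the male, 25376480 in the female and 25130213 in the proximal tubule. Mitochondrially encoded genes held 4.32% to 5.34% of them in the choroid plexus libraries and 70.7% in the proximal tubule. Of 12 epithelial marker genes, all were at or above 0.5 TPM, the study's cut-off for a transcribed gene, in the FACS, male and female libraries. In the proximal tubule library, SLC34A1, SLC5A2, SLC22A6 and SLC7A13, transporters of the proximal tubule, were all at or above this cut-off. With mitochondrially encoded genes kept in, SLC5A2 was at 6.02 TPM there and at 4.87 to 6.37 TPM in the choroid plexus. Keeping these genes in lowers the tubule value far more than those of the choroid plexus. With them left out, the study reported a higher SLC5A2 level in the tubule than in the choroid plexus.

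The 6 matrix genes summed to 2881 TPM in the sorted cells, 1986 TPM in male tissue and 1767.5 TPM in female tissue. They held 0.456% of the expected counts in the FACS library (95% Wilson interval 0.453 to 0.459%), 0.301% in the male (0.299 to 0.303%) and 0.280% in the female (0.278 to 0.282%). The share was thus higher in the sorted cells than in either whole tissue, by more than counting error. A floor of 3 counts equals 1.26e-05% of the FACS library, and none of the 6 genes was near it in the choroid plexus.

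**Figure D1:**
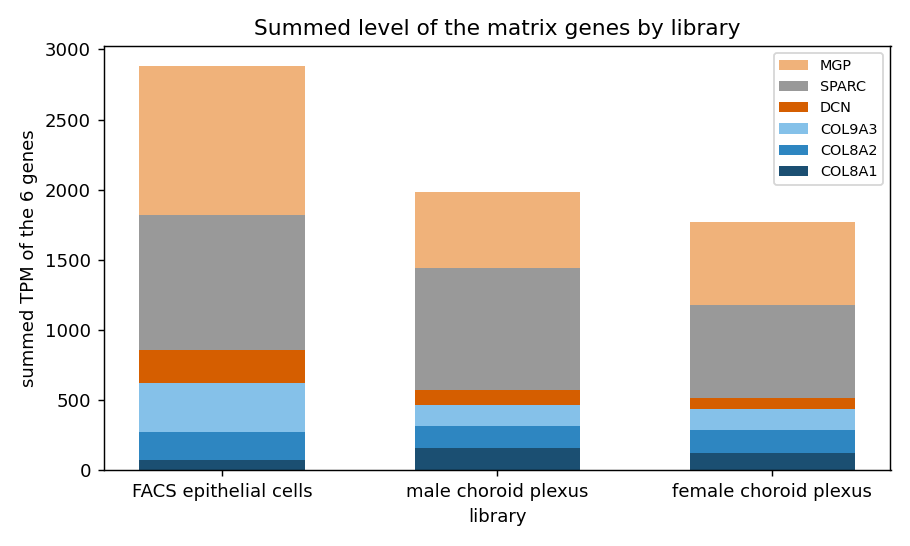
Summed TPM of the 6 matrix genes (y axis, from 0) in the 3 choroid plexus libraries, with each gene as a coloured segment. The FACS bar reaches 2881 TPM, above the male bar at 1986 and the female bar at 1767.5, and its COL8A1 segment is the smallest of the 3 libraries.

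Of the type VIII collagen chains, COL8A1 had 76.0 TPM in the sorted cells (8003 expected counts), 156 TPM in male tissue (15513) and 121.5 TPM in female tissue (11876). It was the only one of the 6 genes that was lower in the sorted cells than in both tissues. COL8A2 had 200.2 TPM in the sorted cells (20377 expected counts), 161 TPM in male tissue (15450) and 163 TPM in female tissue (15357). Its tissue values lay close together, and the FACS value lay above both.

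The chains of type VIII collagen therefore stood in a different proportion in the sorted cells. The ratio of the COL8A1 level to the COL8A2 level was 0.970 in the male, 0.747 in the female and 0.379 in the FACS library. The 2 genes had nearly the same effective length (the length over which reads can start), 4061 and 3924 bases in the male library. The female value lay between those of the male and FACS libraries, and with 1 library each the spread of this ratio between animals is not known.

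COL9A3 had 343 TPM in the sorted cells (15652 expected counts), 151 TPM in male tissue (6537) and 149.5 TPM in female tissue (6355). The whole-tissue values differed by less than their counting intervals, which ran from 147 to 155 TPM in male tissue and from 146 to 153 TPM in female tissue. The FACS value, with an interval of 338 to 349 TPM, was more than 2-fold above both. In the tissue COL9A3 was near COL8A2, with a level 0.939 times that of COL8A2 in the male and 0.919 times in the female, and in the FACS library it was 1.71 times that of COL8A2.

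DCN had 239 TPM in the sorted cells (9799 expected counts), 102 TPM in male tissue (3956) and 81.3 TPM in female tissue (3106). It was the lowest of the 6 genes in both tissues, at place 1097 of all gene IDs in the male and 1289 in the female, and at place 356 in the FACS library. The DCN level was 0.116 times that of SPARC in the male, 0.122 times in the female and 0.250 times in the FACS library.

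SPARC had 958 TPM in the sorted cells (44277 expected counts), 873 TPM in male tissue (38309) and 666 TPM in female tissue (28675). It placed 69 among all gene IDs in the FACS library, 94 in the male and 135 in the female. MGP had 1064 TPM in the sorted cells (10731 expected counts), 544 TPM in male tissue (5388) and 587 TPM in female tissue (5661), at places 51, 188 and 173. SPARC led the 6 genes in both tissues, and MGP led in the FACS library.

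In order of level, the male choroid plexus had SPARC, MGP, COL8A2, COL8A1, COL9A3 and DCN. The neighbours COL8A2, COL8A1 and COL9A3 lay close together there: COL8A2 was 1.03 times COL8A1 (95% exact counting interval of the ratio 1.008 to 1.054) and COL8A1 was 1.03 times COL9A3 (1.004 to 1.064). Both intervals lay just above 1, and the spread between animals is not known. In the female, COL8A2 stood above COL9A3 and COL8A1 came after it, with intervals of 160 to 165, 146 to 153 and 119 to 124 TPM. Sorted cells had the order MGP, SPARC, COL9A3, DCN, COL8A2 and COL8A1, and neighbours differed by 1.11-fold (1.088 to 1.135, MGP and SPARC) or more. The highest gene was 8.60 times the lowest in the male, 8.19 times in the female and 14 times in the FACS library.

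**Figure D2:**
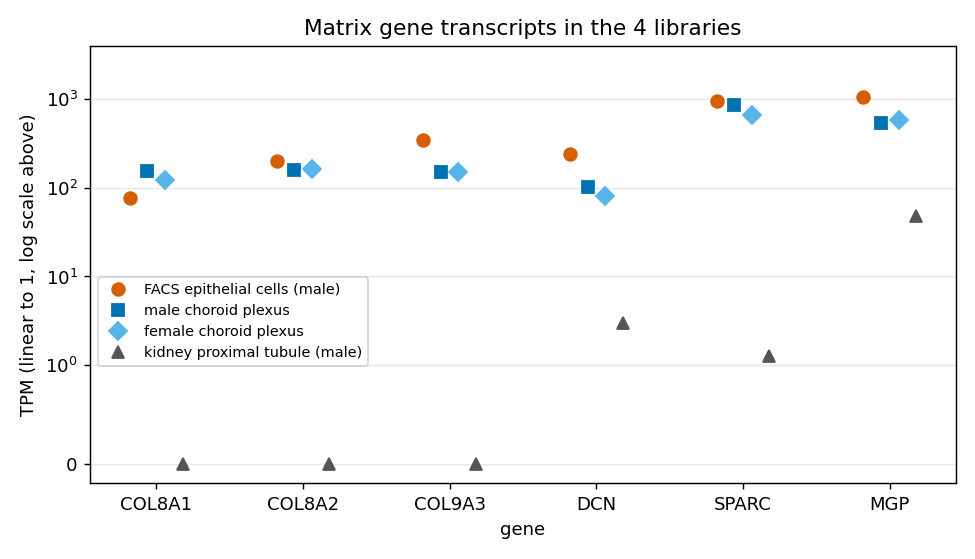
TPM of each matrix gene (y axis, linear up to 1 and logarithmic above) in the 4 libraries, 1 point per library. The FACS points lie above both tissue points for 5 of the 6 genes and below them for COL8A1, and the proximal tubule points lie below those of the choroid plexus, at 0 for the collagens.

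The study used the sorted cells to learn how far whole tissue represents the epithelium. It regarded the sorted population as essentially epithelial. Its evidence was AQP1 staining, control sorts without the NKCC1 antibody, and cell type annotations of the genes absent from the sorted cells. Ratios between libraries are on the log2 scale after 1 TPM was added to each value, which understates the change of low genes, and a gene is called past 2-fold at a log2 ratio of 1 or more in either direction. Against the male choroid plexus, 5 of the 6 genes were higher in the FACS library, compared with 21.8% of the 14024 genes that reached 0.5 TPM in at least 1 of both libraries. The median log2 ratio was 0.64 for the 6 genes and -0.58 for all genes tested. Fewer cells of a type and less RNA per cell cannot be told apart in such pooled samples.

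DCN was 2.35-fold higher in the FACS library than in the male (95% exact counting interval 2.27 to 2.44, log2 ratio 1.23), and COL9A3 was 2.27-fold higher (2.21 to 2.34, log2 ratio 1.18). These 2 of the 6 genes were past 2-fold higher, beside 4.61% of all genes tested. MGP was 1.96-fold higher (1.89 to 2.02, log2 ratio 0.97), just inside the limit, and was past it in 3 of the 6 alternatives, with length left out (CPM), without the 10 highest genes or relative to the median of all genes. COL8A2 was 1.25-fold higher (1.22 to 1.27) and SPARC 1.10-fold higher (1.08 to 1.11).

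COL8A1 had a FACS level 0.487 times that of the male (0.474 to 0.501, log2 ratio -1.03). It was the 1 gene of the 6 past 2-fold lower, beside 25.5% of all genes tested, so the count is no larger than the background. Relative to the median of all genes, its log2 ratio was -0.45, and the call was lost on that scale, with CPM and without the 10 highest genes of each library. On the same relative scale the other 5 genes ranged from 0.72 for SPARC to 1.81 for DCN.

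The female choroid plexus is compared with the same FACS library, so this is no independent comparison. Against it, 5 of the 6 genes were again higher in the sorted cells, beside 25.7% of all genes tested. DCN was 2.94-fold higher (2.83 to 3.06, log2 ratio 1.55) and COL9A3 2.29-fold higher (2.23 to 2.36, log2 ratio 1.19), and these 2 genes were past 2-fold, beside 5.61% of the 13948 genes tested. MGP was 1.81-fold higher (1.76 to 1.87), SPARC 1.44-fold (1.42 to 1.46) and COL8A2 1.23-fold (1.21 to 1.26). MGP was past 2-fold with CPM (log2 ratio 1.01), without the 10 highest genes (1.17) and relative to the median of all genes (1.32). COL8A1 had a FACS level 0.625 times that of the female (0.608 to 0.643, log2 ratio -0.67), so none of the 6 was past 2-fold lower, beside 16.8% of all genes tested. The median log2 ratio was 0.69 for the 6 genes and -0.46 for all genes tested.

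**Figure D3:**
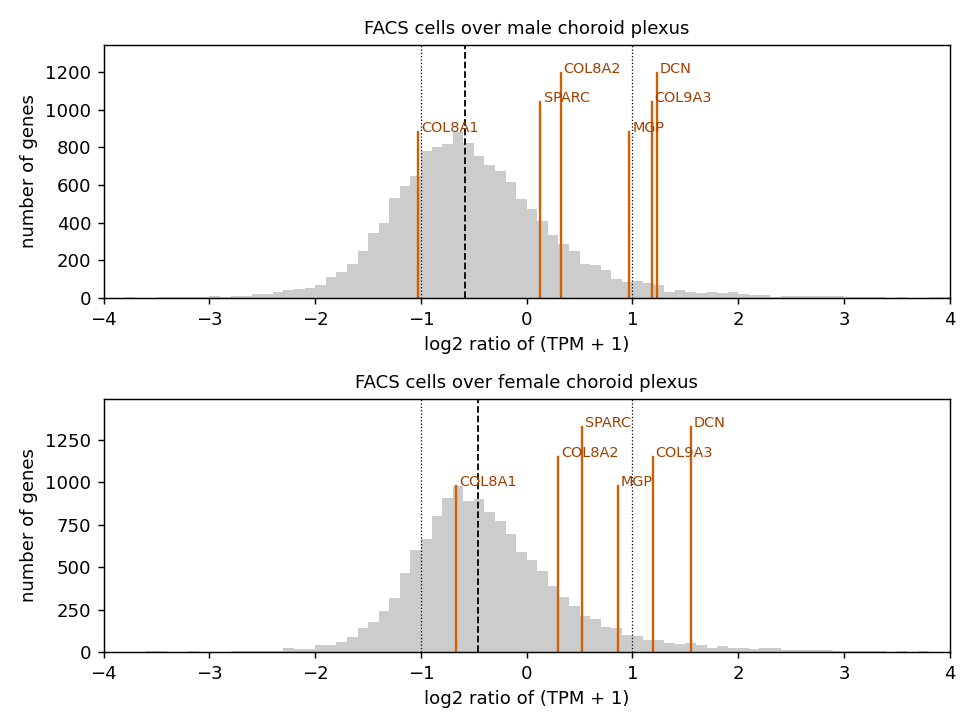
Number of genes (y axis) by log2 ratio of TPM plus 1 (x axis) between the FACS cells and the male (top) or female (bottom) choroid plexus, over genes at or above 0.5 TPM in either library, with the 6 matrix genes as orange lines. The dashed line marks the median of all genes and the dotted lines 2-fold, and 5 of the 6 genes lie to the right of the median line, with COL8A1 to its left. Another 61 genes (top) and 60 genes (bottom) lie beyond 4 in either direction and are not drawn.

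Among the 1998 IDs named in the list, which were chosen by their level in the male like the genes described, the median log2 ratio of FACS to male was -0.66, and 1.40% were past 2-fold higher. Of these listed IDs, 22 had a higher ratio than DCN, 23 than COL9A3, 28 than MGP, 156 than COL8A2, 239 than SPARC and 1459 than COL8A1. Of all genes tested, 96.7% had a lower ratio than DCN and 24.0% a lower ratio than COL8A1.

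Transcript length moved with the ratios between libraries. Across the 14024 genes, the log2 ratio of FACS to male had a Spearman rho of -0.144 with effective length, where genes are not independent and share the 2 libraries. The rho was -0.0463 for FACS to female and -0.313 for female to male, so the trend was strongest between the whole-tissue libraries. Against the female, 16.0% of genes of 3500 bases and over and 19.2% of those under 1000 bases were past 2-fold lower. The shares that follow are against the male. Of genes of 3500 bases and over, the length class of COL8A1 and COL8A2, 33% were past 2-fold lower and the median log2 ratio was -0.74. Of genes of 1000 to 3500 bases, the class of COL9A3, DCN and SPARC, 3.93% were past 2-fold higher, and of genes under 1000 bases, the class of MGP, 8.85% were. The part of transcript length in the ratios of the 6 genes was not tested.

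Genes that mark other cells of the choroid plexus were detected in the FACS library. The fibroblast markers PDGFRA, DDR2, ISLR and C7 summed to 204 TPM in the sorted cells, 222 TPM in male tissue and 175 TPM in female tissue. PDGFRA, a growth factor receptor of fibroblasts, had 49.2 TPM in the sorted cells against 83.4 TPM in male tissue, while C7, a complement component, had 84.8 TPM against 67.8 TPM. None of the 4 was at 0 in any choroid plexus library. Of the 4, 2 were higher in the FACS library than in the male, beside 21.8% of all genes tested. The median log2 ratio of the list was -0.33, and 0.07 without the 10 highest genes of each library. For all genes tested it was -0.58 and -0.27 in the same order.

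The endothelial markers PLVAP, KDR, FLT1, TIE1 and TEK summed to 254 TPM in the sorted cells, 171 TPM in male tissue and 145 TPM in female tissue. All 5 were detected in each, and 4 of the 5 were higher in the FACS library than in the male, beside 21.8% of all genes tested. PLVAP, a protein of the diaphragms of fenestrated endothelium, had 178 TPM against 105 TPM. The mural cell markers PDGFRB, RGS5 and MYL9 summed to 181 TPM in the sorted cells, 256 TPM in male tissue and 211 TPM in female tissue. Of the 3, 1 was higher in the FACS library than in the male, with a median log2 ratio of -0.08. Without the 10 highest genes of each library 2 of the 3 were higher, with a median of 0.33. In this setting all 5 endothelial markers were higher, with a median of 0.65. Of all 14011 genes tested there, 5093 were higher, with a median of -0.27.

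The immune markers CSF1R, CD74, RT1-DA, LYZ2, CX3CR1, ADGRE1 and C3AR1 summed to 5259 TPM in the sorted cells, 949 TPM in male tissue and 611 TPM in female tissue. Of these 7 genes, 6 were higher in the FACS library than in the male, beside 21.8% of all genes tested. Past 2-fold higher were 5 of the 7, beside 4.61% of all genes tested. Without the 10 highest genes of each library the median log2 ratio of the list went from 2.05 to 2.46. CD74, the invariant chain of antigen presentation, had 2556 TPM in the sorted cells against 345 TPM in male tissue. The haemoglobin genes HBA-A1, HBA-A2, HBB and HBB-BS summed to 1659 TPM in the sorted cells, 8648 TPM in male tissue and 4337 TPM in female tissue. All 4 were past 2-fold lower than in the male, beside 25.5% of all genes tested.

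Of the 12 epithelial markers, 2 were higher in the FACS library than in the male, TTR and FOLR1, beside 21.8% of all genes tested. TTR, the thyroxine carrier transthyretin, had 389655 TPM in the sorted cells against 238565 TPM in male tissue. Past 2-fold lower were 4 of the 12, KCNJ13, SLC4A5, OTX2 and ENPP2, beside 25.5% of all genes tested. SLC4A5 had 314 TPM in the sorted cells against 881 TPM in male tissue, and ENPP2 3039 TPM against 7053 TPM. This count was 2 with CPM and 0 relative to the median of all genes, beside 2135 and 846 of 14024 genes tested. The list had a median log2 ratio of -0.73, near that of all genes, -0.58. Relative to the median of all genes the list had a median of -0.15 with 5 of 12 higher against the male, and 0.10 with 7 of 12 higher against the female. With CPM, 4 of the 12 were higher against the male and the median was -0.42, beside 4564 of 14024 genes tested and a median of -0.32. Without the 10 highest genes of each library, which include TTR, 3 of the remaining 11 were higher, with a median of -0.44. Of all genes tested in that setting, 5093 of 14011 were higher, with a median of -0.27. TTR takes a large part of a total that is the same in each library, which leaves less for all other genes. The part of these cell types and of TTR in the values of the 6 matrix genes was not tested.

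**Figure D4:**
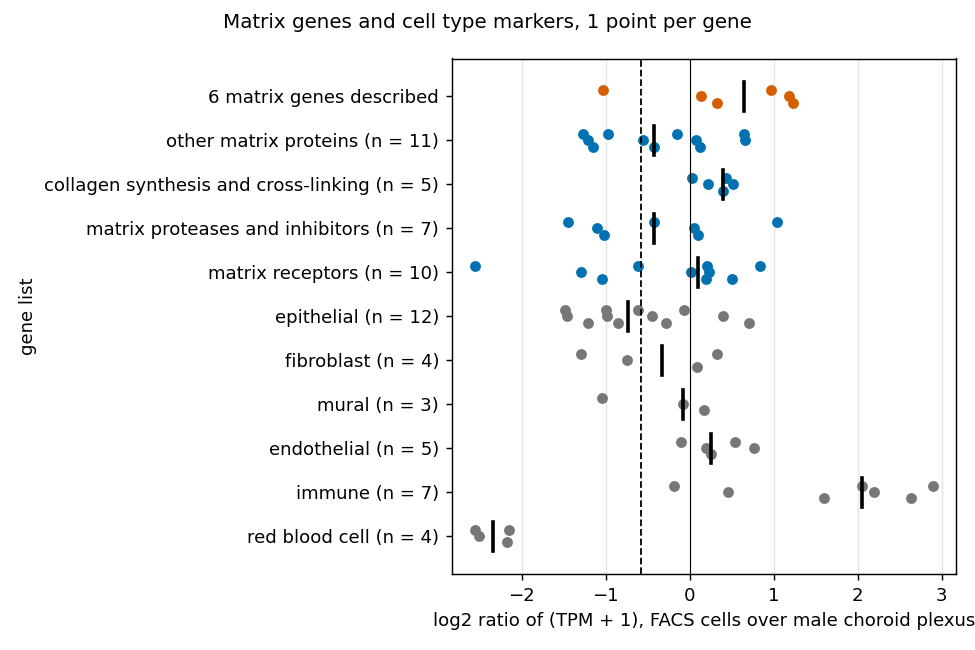
Log2 ratio of TPM plus 1 between the FACS cells and the male choroid plexus (x axis) for the 6 matrix genes (orange), lists of matrix genes (blue) and cell type markers (grey), 1 point per gene with the list's median as a black bar. The dashed line is the median of all genes, -0.58. The matrix genes described have a median of 0.64, above those of the fibroblast, mural and endothelial markers and below that of the immune markers, 2.05.

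Another 33 matrix genes in 4 lists were read beside the 6. Together 18 of the 33 were higher in the FACS library than in the male, beside 21.8% of all genes tested. Their median log2 ratio was 0.03, and 22 of the 33 lay above the median of all genes. Past 2-fold higher was 1 of the 33, SERPINE2, beside 4.61% of all genes tested, and past 2-fold lower were 9, beside 25.5%, so the latter count is near the background. The count past 2-fold lower was 3 with CPM or without the 10 highest genes and 1 relative to the median of all genes. The count past 2-fold higher was 2, 4 and 7 in these settings. The counts over all genes moved too. With CPM, 884 of 14024 genes tested were past 2-fold higher and 2135 lower. Without the 10 highest genes these counts were 1186 and 2007 of 14011, and relative to the median 1526 and 846 of 14024. Against the female, 19 of the 33 were higher, with 1 past 2-fold higher and 1 lower. Of all genes tested these shares were 25.7%, 5.61% and 16.8%.

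All 5 genes for collagen synthesis and cross-linking were higher in the FACS library than in either tissue, with a median log2 ratio of 0.40 against the male. Of all genes tested, 21.8% were higher against the male and 25.7% against the female. SERPINH1, the collagen chaperone of the endoplasmic reticulum, had 350.2 TPM in the sorted cells, 266 TPM in male tissue and 237 TPM in female tissue. P3H3, a prolyl hydroxylase of collagen, had 88.6, 61.9 and 59.0 TPM in the same order, and LOXL1, a lysyl oxidase that cross-links matrix fibres, had 129.7, 111 and 102 TPM. PPIB, a prolyl isomerase, had 478, 356 and 313 TPM. P4HB, the protein disulfide isomerase that is also a subunit of prolyl 4-hydroxylase, had 200.1 TPM in the sorted cells and 196 TPM in male tissue, a log2 ratio of 0.03. With mitochondrially encoded genes removed, 4 of the 5 were higher against the male, beside 2934 of 14011 genes tested. None of the 5 was past 2-fold against either tissue with the TPM as deposited. Of all genes tested, 4.61% were past 2-fold higher and 25.5% lower against the male, and 5.61% and 16.8% against the female. Relative to the median of all genes, 2 of the 5 were past 2-fold higher against the male and 3 against the female. Over all genes tested, 1526 of 14024 and 1483 of 13948 were past 2-fold higher on this scale.

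The small leucine-rich proteoglycans related to decorin did not share its ratio. OGN (osteoglycin) had 47.8 TPM in the sorted cells, 117 TPM in male tissue and 65.4 TPM in female tissue, and was past 2-fold lower against the male. FMOD (fibromodulin) had 365 TPM in the sorted cells, 406 TPM in male tissue and 327 TPM in female tissue. PRELP, a proline- and arginine-rich member, had 374, 502 and 431 TPM in the same order. Of these 4 proteoglycans, only DCN was higher in the FACS library than in both tissues with the TPM as deposited. Relative to the median of all genes against the male, -0.58, FMOD and PRELP lay above it, with log2 ratios of -0.15 and -0.42, and OGN below it, at -1.27.

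Of the 11 other matrix proteins, 4 were higher in the FACS library than in the male, beside 21.8% of all genes tested. OGN, FMOD and PRELP belong to these 11. None was past 2-fold higher and 3 were past 2-fold lower, near the 25.5% of all genes tested. None of the 11 was past 2-fold lower with CPM, without the 10 highest genes or relative to the median of all genes. Over all genes tested, 2135 of 14024, 2007 of 14011 and 846 of 14024 were past 2-fold lower in these settings. Past 2-fold higher were 2 of the 11 in each of the last 2 settings, beside 1186 of 14011 and 1526 of 14024 genes. Above the median of all genes lay 7 of the 11. The highest ratios were those of LAMB2, a laminin chain of basement membranes, with 193 TPM against 122 TPM, and FBLN1 (fibulin 1), with 166 TPM against 106 TPM. RELN (reelin), a large secreted glycoprotein, had 38.1 TPM against 89.4 TPM, and MFAP4, a protein of elastic fibres, 29.6 TPM against 66.8 TPM. The SPARC relatives SPOCK2 and FSTL1 had 61.6 and 79.9 TPM in the sorted cells against 122 and 118 TPM in male tissue.

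Of the 7 matrix proteases and inhibitors, SERPINE2, a protease inhibitor (protease nexin 1), was past 2-fold higher, with 414 TPM in the sorted cells, 201 TPM in male tissue and 159 TPM in female tissue. TIMP3, an inhibitor of metalloproteinases that binds to the matrix, had 107 TPM in the sorted cells against 295 TPM in male tissue and 213 TPM in female tissue. TIMP3, RECK and ADAM9 were past 2-fold lower against the male, beside 25.5% of all genes tested, and not against the female, a difference that was not tested. With CPM or without the 10 highest genes 1 of the 7 was past 2-fold lower against the male, and relative to the median of all genes 0 were. Over all genes tested, 2135 of 14024, 2007 of 14011 and 846 of 14024 were past 2-fold lower in these settings. MMP2, a gelatinase, had 225 TPM in the sorted cells and 210.3 TPM in male tissue, and MMP14, its membrane-bound activator, 169 TPM and 163 TPM.

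Of the 10 matrix receptors, 6 were higher in the FACS library than in the male, beside 21.8% of all genes tested. None was past 2-fold higher, beside 4.61% of all genes tested, and 3 were past 2-fold lower: ITGB8, DDR2 and ANTXR1. This count is near the 25.5% of all genes tested. It was 2 with CPM or without the 10 highest genes and 1 relative to the median of all genes. Over all genes tested, 2135 of 14024, 2007 of 14011 and 846 of 14024 were past 2-fold lower in these settings. Past 2-fold higher were 1 of the 10 with CPM or without the 10 highest genes and 2 relative to the median of all genes. Over all genes, 884 of 14024, 1186 of 14011 and 1526 of 14024 were past 2-fold higher in the same order. DDR2 is also counted among the fibroblast markers. DDR1, a collagen receptor tyrosine kinase of epithelia, had 62.4 TPM in the sorted cells, 54.0 TPM in male tissue and 60.0 TPM in female tissue. DDR2, the related receptor of fibroblasts, had 2.47, 7.48 and 5.03 TPM. The integrin chain ITGB8 was past 2-fold lower against both tissues, with 16.8 TPM in the sorted cells, 104.0 TPM in male tissue and 86.4 TPM in female tissue, while ITGB1, the shared chain of most collagen-binding integrins, had 59.5, 58.9 and 48.6 TPM.

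Between the sexes, none of the 6 genes was past 2-fold, beside 0.44% of the 13869 genes tested higher and 0.959% lower in the female. SPARC had a female level 0.763 times the male (0.751 to 0.775), COL8A1 0.779 times (0.761 to 0.798) and DCN 0.800 times (0.763 to 0.839). MGP was 1.08-fold higher in the female (1.04 to 1.12). For COL8A2 and COL9A3 the intervals of the ratio, 0.990 to 1.03 and 0.957 to 1.03, included 1. The median log2 ratio of female to male was -0.17 for the 6 genes and -0.16 for all genes. Sex, animals and library cannot be told apart here. Over all genes this ratio had a Spearman rho of -0.313 with effective length, whose part in these values was not tested.

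Of the 33 other matrix genes, 3 were higher in the female than in the male library, beside 23.1% of all genes tested, and none was past 2-fold. With CPM, 11 of the 33 were higher, beside 5802 of 13869 genes tested. The median log2 ratio of all genes moved from -0.16 to -0.04 in this setting. OGN had the lowest ratio of them, with a log2 ratio of -0.83 between 65.4 TPM in female tissue and 117 TPM in male tissue.

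In the proximal tubule library, COL8A1, COL8A2 and COL9A3 were listed at 0. This library has 7352952 expected counts outside mitochondrially encoded genes, and 670 of the 1998 listed IDs and 20 of the 33 other matrix genes were listed at 0 in it too, so a 0 is given only as listed. With mitochondrially encoded genes removed from both libraries and the rest rescaled, MGP had 173 TPM (693 expected counts) against 594 TPM in male tissue. DCN had 10.6 TPM (175 expected counts) against 111 TPM and SPARC 4.52 TPM (84 expected counts) against 953 TPM.

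The choroid plexus level was thus 3.43-fold that of the tubule for MGP (3.17 to 3.72), 10.4-fold for DCN (8.97 to 12.2) and 211-fold for SPARC (170.0 to 264). Of these 3 genes MGP had the smallest ratio. Before mitochondrially encoded genes were removed, it made up 92.0% of the summed TPM of the 6 genes there, against 27.4% in the male choroid plexus.

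The genes nearest to each of the 6 in pattern were read from the 1998 listed IDs, by the Euclidean distance between log2 values of TPM plus 1 centred over the 3 choroid plexus libraries. With 3 libraries many genes have a small distance, and it says nothing of shared function. For DCN the nearest were VIM, the intermediate filament vimentin, at 0.122, with 173 TPM in the sorted cells, 81.9 TPM in male tissue and 64.5 TPM in female tissue, then SERPINE2 at 0.146 and AY172581.9 at 0.213. For COL9A3 they were the lysosomal proteases CTSZ at 0.076 and CTSH at 0.171, with LOC100364435 at 0.079 between them. For SPARC they were TPM4 at 0.030, C1R at 0.035 and HSP90B1 at 0.039, and for MGP SELENOK at 0.048, SIL1 at 0.050 and RNASET2 at 0.066.

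Among the genes nearest to COL8A1 were OLFML1 at 0.030 and ACE at 0.035, and the nearest to COL8A2 were SELENOF at 0.012, ERGIC3 at 0.015 and CLU at 0.032. The chains of type VIII collagen were 0.980 apart. Within the 6, the nearest pair was COL9A3 and MGP, 0.240 apart, followed by COL9A3 and DCN at 0.270 and COL8A2 and SPARC at 0.288. The pair farthest apart was COL8A1 and DCN, at 1.83.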

How the data were processed

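The authors aligned 150-base paired-end reads to Rnor_6.0 (Ensembl release 103) with STAR 2.7.2a and quantified genes with RSEM 1.3.3. Per the file headers, the deposited values per gene ID are an expected count (estimated, so not always whole), a TPM and an effective length, all used here, and an FPKM, left unused. Strandedness of the counting is not given in the sources used here, so overlapping antisense genes are uncertain. Gene names were taken from the supplementary lists, none of whose values was used, and gene positions were not used.

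From the deposited TPM, log2 ratios with a pseudocount of 1 were computed over genes at or above 0.5 TPM in either library, with Python 3.11.15, numpy 2.4.6, pandas 2.3.3, scipy 1.17.1 and matplotlib 3.10.9. Intervals at 95% are exact Poisson for a level, exact binomial for a ratio and Wilson for a share, from expected counts rounded to whole numbers, and cover counting error only. With 1 library per group no test was made. The ratio step was tested on simulated data with known changes, read relative to the median of all genes. The simulated counts came from the male library's profile with counting error only, so they do not bear on shifts of all genes between libraries. Genes named are the 6 matrix genes, the genes of the matrix and marker lists and the 3 nearest in pattern to each of the 6, of which 1 is not reported here. The genes and lists were chosen with earlier results of these data known. Alternatives were leaving out the 10 highest genes per library or the 13 mitochondrially encoded genes, a pseudocount of 0.1 or 0.5, CPM from the expected counts, other backgrounds (5 TPM, no filter, listed IDs) and, added after seeing the data, centring on the median of all genes.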

Additional observations from a re-analysis of the deposited data

How the results depend on the processing

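No paired analysis was possible because each group has 1 library. With 6 other settings in each of 3 comparisons, 33 of the 36 counts of matrix genes past 2-fold stayed within 1.5 times the reported count. The other 3 were the count past 2-fold lower against the male choroid plexus. It went from 1 (COL8A1) to 0 with CPM, without the 10 highest genes of each library and relative to the median of all genes, the last chosen after seeing the data. In the same 3 settings the count past 2-fold higher went from 2 to 3, with MGP, against either tissue, which is just at the limit of 1.5 times. Many of the 36 could hardly move. Between the sexes every count was 0, and the 6 genes lay far above the pseudocounts. The 33 of 36 is therefore no measure of stability. The log2 ratio of FACS to male ranged over the 5 settings chosen earlier from -1.06 to -0.62 for COL8A1, from 0.28 to 0.73 for COL8A2, from 1.15 to 1.59 for COL9A3, from 1.19 to 1.64 for DCN, from 0.10 to 0.54 for SPARC and from 0.93 to 1.38 for MGP. No sign changed against the male or the female choroid plexus. Between the sexes COL8A2 (-0.02 to 0.15) and COL9A3 (-0.05 to 0.12) lay on either side of 0. Without the 10 highest genes the median of all genes for FACS to male moved from -0.58 to -0.27, and with CPM to -0.32. The share of genes past 2-fold higher was 1.97% with no filter on low values, 4.78% with a cut-off of 5 TPM and 1.40% among the listed IDs, for FACS to male. Without replicates, the spread between animals limits every comparison here.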
